A study of Mus musculus with 8 samples.

Results

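The genes described here are 36 genes of DNA replication and cell division, chosen by name: 21 that act at the G1/S boundary and in DNA synthesis, 13 that act in G2 and mitosis, and the D cyclins Ccnd1 and Ccnd2. The array annotation held probe sets for 35 of them, among 17097 genes measured in all. Ccnb1 had no probe set with a single gene symbol here and is not analysed. The members were followed in dermal fibroblasts of 4 young mice, aged 2 months, and of 4 old mice, aged 18 months, each mouse giving 1 array. Each collection day took 1 mouse of each age, but the labels do not say which animals shared a day. Strain, sex, genotype and any treatment are not given in the sources used here. Skin without subdermis was digested with collagenase, and cells were sorted as Pdgfra and CD34 positive and as negative for CD45, CD117, CD24, CD31 and EpCam. In such bulk samples a change in the share of dividing cells and a change in RNA per cell cannot be told apart.

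A cell that leaves quiescence first makes D cyclins, which with Cdk4 and Cdk6 release E2F factors from the retinoblastoma family. E2F then turns on genes that load the MCM helicase on origins and that make nucleotides and polymerases. A second wave, driven by B-Myb, Foxm1 and the MuvB complex, makes the cyclins, kinases and spindle proteins of mitosis. In resting cells the DREAM complex holds both waves down, through E2F sites in replication genes and through CHR elements, often paired with CCAAT boxes, in mitotic genes. Most dermal fibroblasts of adult mouse skin are quiescent.

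The promoters of 6 members are shown with the letters named for these waves. They are the 3 called replication members and the 3 mitotic members of smallest p among those in the RefSeq promoter table. Each line gives the 250 bases before the transcription start (RefSeq, GRCm38.p6). Capitals mark E2F-type letters (TTTCCCGC, TTTCGCGC, TTTGCCGC or TTTGGCGC), CHR letters (TTTGAA or TTCGAA) and CCAAT, each on either strand.
Pola1 (chrX:93632156-93632405, minus strand): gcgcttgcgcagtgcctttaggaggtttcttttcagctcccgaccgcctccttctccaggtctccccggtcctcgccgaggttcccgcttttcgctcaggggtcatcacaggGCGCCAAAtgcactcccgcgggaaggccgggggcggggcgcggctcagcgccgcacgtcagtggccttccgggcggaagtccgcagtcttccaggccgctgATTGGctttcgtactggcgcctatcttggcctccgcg
Rrm1 (chr7:102441445-102441694, plus strand): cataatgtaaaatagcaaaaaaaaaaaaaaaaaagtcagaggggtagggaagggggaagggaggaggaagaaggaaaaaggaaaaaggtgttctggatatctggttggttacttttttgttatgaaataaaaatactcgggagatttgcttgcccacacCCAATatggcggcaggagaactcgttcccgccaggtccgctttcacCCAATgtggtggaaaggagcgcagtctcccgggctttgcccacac
Prim1 (chr10:128014965-128015214, plus strand): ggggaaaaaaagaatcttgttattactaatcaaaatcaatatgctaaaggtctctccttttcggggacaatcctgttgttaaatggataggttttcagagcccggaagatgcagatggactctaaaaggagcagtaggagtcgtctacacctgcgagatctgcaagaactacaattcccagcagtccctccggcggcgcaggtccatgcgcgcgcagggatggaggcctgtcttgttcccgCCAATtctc
Mki67 (chr7:135716380-135716629, minus strand): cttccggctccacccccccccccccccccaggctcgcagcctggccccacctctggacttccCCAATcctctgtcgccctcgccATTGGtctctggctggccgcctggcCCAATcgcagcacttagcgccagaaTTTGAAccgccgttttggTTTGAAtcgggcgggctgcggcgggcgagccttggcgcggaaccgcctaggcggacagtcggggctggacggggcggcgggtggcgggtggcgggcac
Top2a (chr11:99024190-99024439, minus strand): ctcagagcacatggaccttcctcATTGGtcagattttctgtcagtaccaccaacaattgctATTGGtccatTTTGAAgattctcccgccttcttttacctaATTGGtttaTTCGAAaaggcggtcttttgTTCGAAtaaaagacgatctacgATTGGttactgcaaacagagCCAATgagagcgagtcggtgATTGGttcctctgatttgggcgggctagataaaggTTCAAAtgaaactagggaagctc
Ccnb2 (chr9:70421555-70421804, minus strand): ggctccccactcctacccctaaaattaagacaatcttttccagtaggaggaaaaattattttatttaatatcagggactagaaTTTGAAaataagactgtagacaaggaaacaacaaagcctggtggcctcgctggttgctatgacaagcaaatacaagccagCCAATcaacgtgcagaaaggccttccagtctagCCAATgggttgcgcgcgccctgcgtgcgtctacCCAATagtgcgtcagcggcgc
No match overlapped one of another motif in these 6 stretches. The Pola1 stretch held 1 E2F-type match and 1 CCAAT, whereas those of Rrm1 and Prim1 held 2 and 1 CCAAT and neither of the other motifs. The Top2a stretch held 4 CHR matches and 6 CCAAT, Mki67 2 and 3, and Ccnb2 1 and 3. Over windows of 300 bases (250 before to 50 after the start), E2F-type letters stood in 8 of 20 windows of 18 replication genes, 40% of them, against 2.26% of all 32851 windows. CHR letters stood in 8 of 10 mitotic windows (80%), against 3 of 20 replication windows (15%) and 19.2% of all windows. CCAAT was in 75% of replication, 90% of mitotic and 37.4% of all windows. A match is a stretch of letters and not a measured binding site. Of the 7 replication genes that rose with age, 6 had a window. Mcm5, Mcm6, Pola1 and Uhrf1 had E2F-type letters in one, and Rrm1 and Prim1 did not. Cdc6, Cdt1, Mcm3 and Mcm7, which were not called, had such letters too.

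Values are log2 probe set levels after RMA, and where a gene had several probe sets the one with the highest mean stood for it. Ages were compared with limma over all 17097 genes, and a gene was called at an adjusted p under 0.05. By that rule 9.87% of all genes were higher in old fibroblasts and 7.66% lower. Higher genes made up 56.3% of the calls, 49.5% with arrays centred on their medians and 45.2% when arrays were quantile normalized once more. Array correlations were between 0.992 and 0.997 within an age and between 0.983 and 0.990 across ages. The gated genes Pdgfra and Cd34 were at 8.36 and 11.73 in young and 8.52 and 11.68 in old, and neither was called. They belong to a list of 10 fibroblast markers, of which 7 had negative and 3 positive differences. Only Col3a1 was called, as lower (-0.28, adjusted p = 0.00765 by limma). Without overlap between ages, 3 of the list (Col1a1, Col3a1 and Lum) were lower and 1 (Vim) was higher. Over all genes 9.66% were lower and 11.7% higher without overlap. Of the 5 genes sorted against, Ptprc, Kit and Epcam lay at or below 5.12 on average, the 95th percentile of 78 olfactory and vomeronasal receptor genes, which serves here as a level that silent genes reach. Pecam1 was at 5.07 in young and 5.43 in old, and Cd24a at 7.27 and 6.60. The arrays also carry control probe sets for non-specific binding, and the mean of the 6 richest in G and C, the background index, was lower in every old array (5.84 to 6.57) than in any young array (6.73 to 7.0).

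DNA replication genes were higher in old fibroblasts more often than they were lower. Of 21 replication and G1/S members, 7 rose (33.3%, against 9.87% of all genes), none fell and 14 were not called. With genes at or below the silent-gene level left out, 6 of 15 members rose, against 16.1% of the 10295 genes then tested. By limma at an unadjusted p under 0.05, 11 of the 21 were higher and 2 lower, against 16.6% and 13.1% of all genes. The 7 were Pola1, Mcm4, Mcm6, Prim1, Rrm1, Mcm5 and Uhrf1, with log2 differences between 0.225 and 0.63. The young means of Pola1 and Mcm6 were not above the silent-gene level, so their differences start from a level that silent genes reach. That of Uhrf1 was just above it. In each of the 7 all 4 old values lay above all 4 young values, as they did in 11.7% of all genes. The median difference over the 21 members was 0.225, against 0.01 over all genes. Because the list was drawn up with earlier results of these arrays known, these shares describe it and carry no test of the list.

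When limma was given the background index as a second term, none of the 7 calls was kept (adjusted p between 0.204 and 0.723), and 5 of the 21 members were higher and 1 lower at an unadjusted p under 0.05, a threshold that 1197 of all genes (7.0%) passed as higher and 1067 (6.24%) as lower. At the adjusted threshold 70 genes (0.409%) were then higher and 104 (0.608%) lower. The differences with the covariate were 0.56 for Pola1, 0.51 for Mcm4, 0.47 for Prim1, 0.33 for Mcm5, 0.29 for both Rrm1 and Mcm6 and 0.28 for Uhrf1. The index separated the ages completely, and the median SE over all genes grew from 0.0830 to 0.156.

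**Figure D1:**
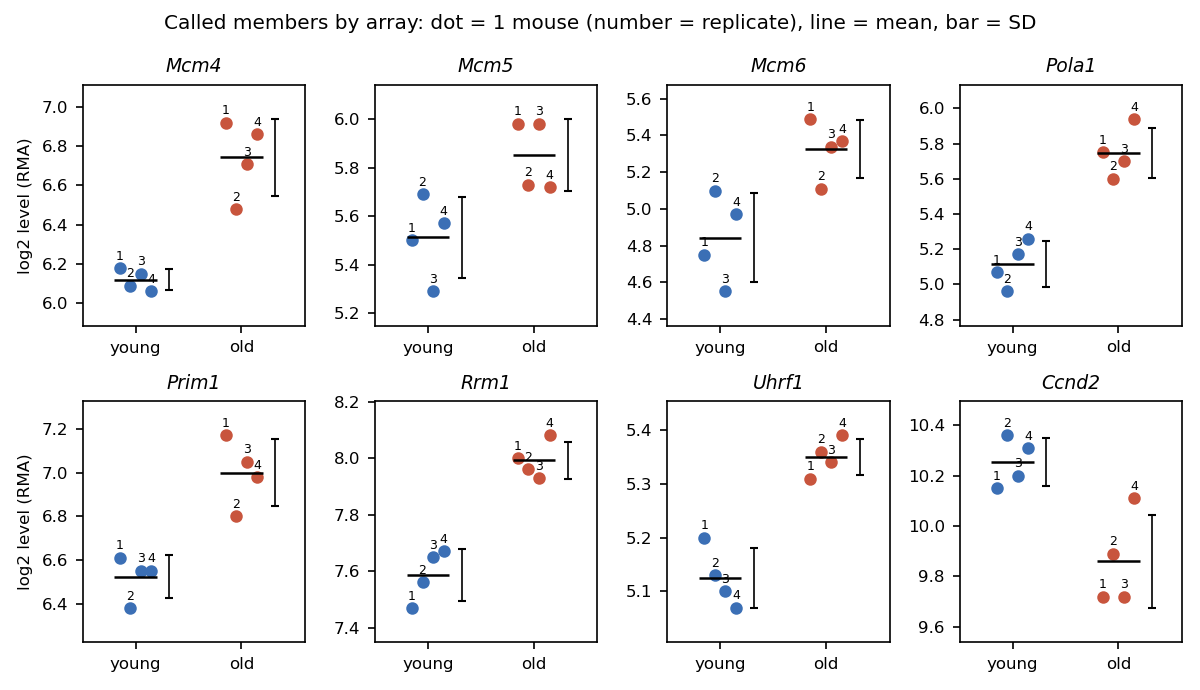
Log2 level (vertical axis, RMA) in each of 4 young and 4 old mice for the 8 called members, with the replicate number at each dot, the group mean as a line and the SD as a bar. Old dots lie above all young dots for 7 replication members, and below them for Ccnd2.

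The members are next taken by role, and shares of so few genes only describe them. Of 3 DNA synthesis members 2 rose (66.7%, against 9.87% of all genes), both subunits of the enzymes that start new strands. Other subunits of these enzymes, outside the member list, were not called by limma: Pola2 (-0.23, adjusted p = 0.0857) and Prim2 (0.10, 0.463). Pola1, the catalytic subunit of DNA polymerase alpha, read 5.07, 4.96, 5.17 and 5.26 in young replicates 1 to 4 and 5.75, 5.60, 5.70 and 5.94 in old replicates 1 to 4. Every old array lay above the young range, and old replicate 4 was the highest. Its mean was 5.12 ± 0.13 (SD, n = 4) in young and 5.75 ± 0.14 (SD, n = 4) in old, the young mean not being above the silent-gene level. By limma the log2 difference was 0.63 ± 0.09 (SE; adjusted p = 0.0013). Prim1, the primase subunit that lays down the RNA primer, read 6.61, 6.38, 6.55 and 6.55 in young and 7.17, 6.80, 7.05 and 6.98 in old. Old replicate 1 was the highest and old replicate 2 the lowest of the old arrays, without overlap between ages. The difference was 0.48 ± 0.09 (SE; adjusted p = 0.0049), and its second probe set gave 0.61. Pcna, the sliding clamp that holds polymerases on DNA, was at 11.16 in young and 11.31 in old, and its difference of 0.14 (95% interval -0.02 to 0.31) was not called.

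Among the subunits of the replicative helicase and the factors that load it, 3 of 8 rose (37.5%, against 9.87% of all genes). All 3 were helicase subunits. A positive difference was seen in 7 of the 8, and in 8917 of all 17097 genes. The MCM proteins form the hexameric helicase, and Cdc6 and Cdt1 place it on origins. Mcm4 read 6.18, 6.09, 6.15 and 6.06 in young and 6.92, 6.48, 6.71 and 6.86 in old. The young arrays lay close together (SD 0.05), and the old ones were spread more (SD 0.20), with old replicate 2 the lowest. Its log2 difference was 0.62 ± 0.09 (SE; adjusted p = 0.00174).

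Mcm6 read 4.75, 5.10, 4.55 and 4.97 in young and 5.49, 5.11, 5.34 and 5.37 in old. Its groups were separated by 0.01 only, between young replicate 2 and old replicate 2, and its young mean of 4.84 was below the silent-gene level. The difference was 0.485 ± 0.12 (SE; adjusted p = 0.0236), and the call was lost without young replicate 1 (adjusted p = 0.0578) or 3 (0.0549) or without old replicate 1 (0.0531), 3 (0.0538) or 4 (0.0591). Mcm5 read 5.50, 5.69, 5.29 and 5.57 in young and 5.98, 5.73, 5.98 and 5.72 in old, again with a narrow gap. Its difference of 0.34 ± 0.10 (SE; adjusted p = 0.0433) was lost as a call without young replicate 1 (0.085), 3 (0.108) or 4 (0.0717) or old replicate 1 (0.0916), 2 (0.051) or 3 (0.109). It was also lost after median centring (0.0845) or a further quantile normalization (0.0925), and with the mean over both of its probe sets, which moved the value to 0.185 (0.0801).

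The other helicase subunits were not called. Mcm3 differed by 0.28 (adjusted p = 0.0852), Mcm2 by 0.24 (0.163) and Mcm7 by -0.06 (0.701). The mean over both probe sets was 0.18 for Mcm3 and 0.13 for Mcm2. Both probe sets of Mcm2 lay at or below the silent-gene level on average. Mcm3 was called without old replicate 4 (0.35, adjusted p = 0.0316). That array read 7.06 against 7.34 to 7.38 in the other old arrays. The probe set used for Mcm2 and that for Mcm7 are of a class (suffix s) that can bind transcripts of more than 1 gene, and the second probe set of Mcm7 gave 0.21. The 95% interval was 0.41 to 0.83 for Mcm4 and -0.24 to 0.12 for Mcm7, and the difference between subunits was not tested.

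The loading factors and the factors that switch the helicase on had positive differences that were not called. Cdt1 read 6.62, 6.90, 7.06 and 7.27 in young and 7.02, 7.62, 7.31 and 7.59 in old. The ages overlapped, since old replicate 1 lay below young replicates 3 and 4. The difference was 0.42 ± 0.16 (SE; adjusted p = 0.105), and it was called without old replicate 1 (0.54, adjusted p = 0.0337). The other 2 probe sets of Cdt1, both at or below the silent-gene level, gave 0.16 and -0.08, and the mean over all 3 gave 0.17 (adjusted p = 0.386). Mcm10, which helps to assemble the active helicase, differed by 0.44 ± 0.18 (SE; adjusted p = 0.139). Its old replicates 2 and 4 read 6.02 and 6.27, whereas old replicates 1 and 3 read 5.39 and 5.47, inside the young range of 5.16 to 5.48. Mcm10 differed by 0.28 without old replicate 4 and by 0.25 as the mean over its 3 probe sets. Cdc45 (0.08) and the GINS subunit Gins1 (0.15), parts of the same helicase, and Cdc6 (0.16) lay at or below the silent-gene level in both ages.

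Of 3 nucleotide enzymes 1 rose (33.3%, against 9.87% of all genes). Rrm1, the large subunit of ribonucleotide reductase, read 7.47, 7.56, 7.65 and 7.67 in young and 8.00, 7.96, 7.93 and 8.08 in old. All old arrays lay above all young arrays, with a small spread in both groups (SD 0.09 and 0.06). Rrm1 rose by 0.405 ± 0.07 (SE; adjusted p = 0.00283), and a second probe set gave 0.43. Rrm2, the small subunit, which is usually the one tied to S phase, differed by -0.02 (95% interval -0.17 to 0.13; adjusted p = 0.897). The interval of Rrm1 was 0.26 to 0.55, and the difference between the subunits was not tested. Tyms, which makes thymidylate, read 7.51, 7.46, 7.50 and 7.34 in young and 7.31, 7.05, 7.0 and 7.36 in old. It differed by -0.27 ± 0.09 (SE; adjusted p = 0.0712), and the lower value was called without old replicate 4 (-0.33, 0.0401) or after a further quantile normalization (0.0353). Its probe set is also of the class that can bind several transcripts, and its other 4 gave -0.05 to 0.12, with a mean over all 5 of -0.047.

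Of 4 G1/S regulators 1 rose (25.0%, against 9.87% of all genes). The other 3 had negative differences that were not called, and 8180 of all 17097 genes had a negative difference. Uhrf1, which guides maintenance DNA methylation to new strands, read 5.20, 5.13, 5.10 and 5.07 in young and 5.31, 5.36, 5.34 and 5.39 in old. The step was small but larger than the spread in either age, at 0.225 ± 0.06 (SE; adjusted p = 0.0225). It started from a young mean of 5.125, just above the silent-gene level of 5.12. The call was lost without young replicate 2 (0.052), 3 (0.0633) or 4 (0.0687) or old replicate 2 (0.0539), with trend and robust settings (0.0563) and with the mean over both probe sets (0.0783). The more variable probe set gave 0.14 (adjusted p = 0.38).

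E2f1, the activator of the replication wave, read 8.00, 7.84, 7.93 and 7.86 in young and 7.77, 7.78, 7.80 and 7.74 in old. Every old array was lower, as in 9.66% of all genes, but the difference of -0.135 was not called (adjusted p = 0.158). Its second probe set differed by -0.45 and was called lower (adjusted p = 0.0119), as was the mean over both (-0.29, 0.0131). Ccne1, cyclin E1, which with Cdk2 fires origins, differed by -0.47 ± 0.23 (SE; adjusted p = 0.196). It read 6.28 in young replicate 1 against 7.11 to 7.32 in the other young arrays, and 6.09 to 6.77 in old. Without that young array it was called lower (-0.71, adjusted p = 0.0149). Ccne2 lay at or below the silent-gene level (-0.07).

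**Figure D2:**
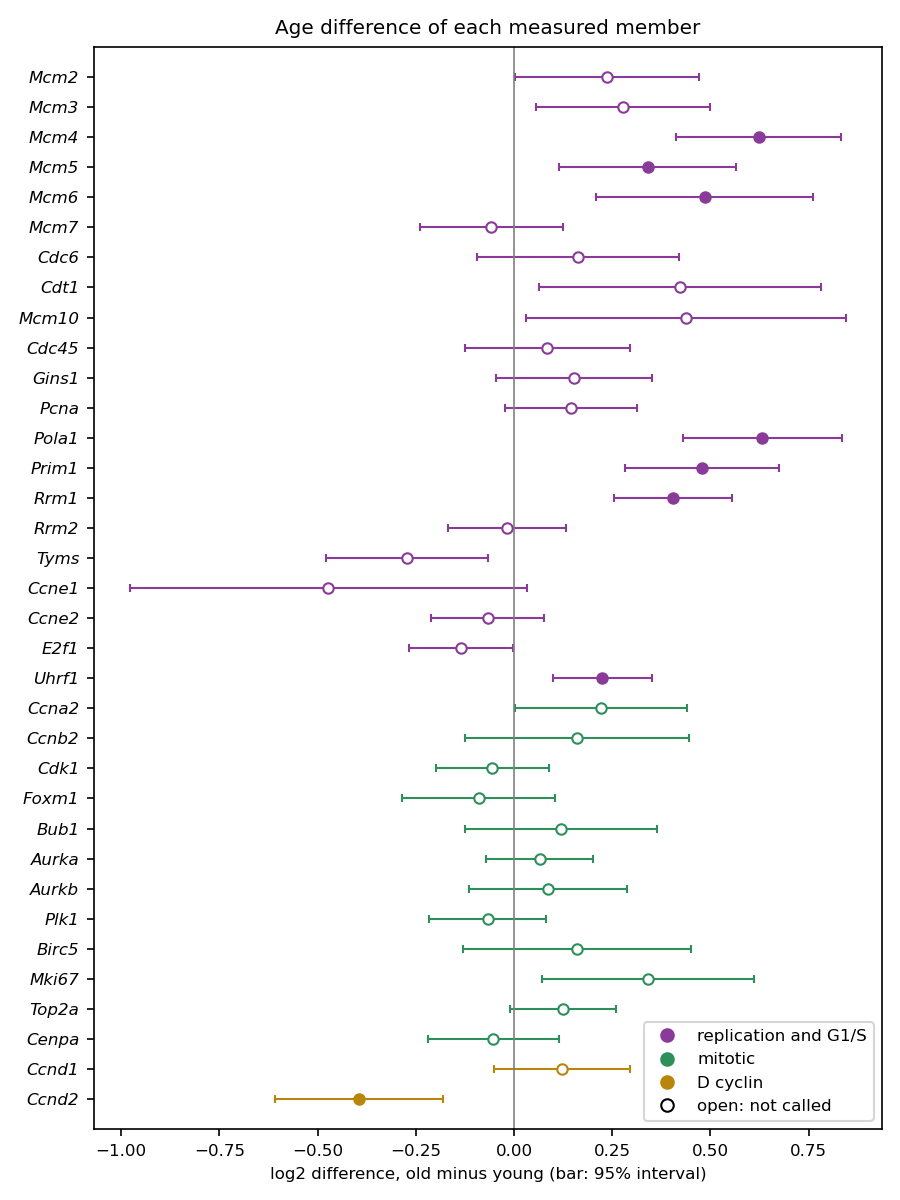
Log2 difference, old minus young (horizontal axis), with its 95% interval for the 35 measured members in order of role. Filled dots are called, 7 replication members to the right of 0 and Ccnd2 to the left, and all 12 mitotic members are open.

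The D cyclins, which link growth signals to the G1 kinases, had high levels and opposite signs. Ccnd2 fell, from 10.15, 10.36, 10.20 and 10.31 in young to 9.72, 9.89, 9.72 and 10.11 in old. The ages did not overlap, and old replicate 4 came within 0.04 of young replicate 1. The log2 difference was -0.395 ± 0.10 (SE; adjusted p = 0.0188), 1.31-fold lower, and all 6 of its probe sets were lower (-0.51 to -0.31). The call was lost without young replicate 2 (0.0552) or 4 (0.0515) or old replicate 3 (0.0524), and with the background term (-0.51, adjusted p = 0.278). Ccnd1 was at 10.93 in young and 11.05 in old, a difference of 0.12 (adjusted p = 0.332) that its other 2 probe sets put at 0.03 and -0.09.

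None of the 12 measured mitotic members was called by limma, against 17.5% of all genes, and 2 were higher at an unadjusted p under 0.05 (16.7%, against 16.6% of all genes). Their median difference was 0.10, between -0.09 and 0.34, and 8 were positive, as were 8917 of all 17097 genes. The smallest adjusted p was 0.0843. Of the 12, 10 had means at or below the silent-gene level. The members above it were Ccna2 and Foxm1. Genes above that level made 2712 of the 2998 calls over all genes, so 17.5% is not a like base for this list.

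Mki67, the proliferation marker that coats mitotic chromosomes, read 4.39, 4.50, 4.68 and 4.66 in young and 4.98, 4.97, 4.54 and 5.10 in old. In old it lay above the young range in 3 arrays and inside it in old replicate 3. The difference was 0.34 ± 0.12 (SE; adjusted p = 0.0843), and it was called without old replicate 3 (0.46, adjusted p = 0.0102). With the background term its sign turned (-0.10, adjusted p = 0.898). Ccna2, cyclin A2, which acts in S phase and G2, read 5.56, 5.83, 5.53 and 5.51 in young and 6.04, 5.67, 5.78 and 5.83 in old. The ages overlapped through young replicate 2, and the difference was 0.22 (95% interval 0.00 to 0.44; adjusted p = 0.162), or 0.00 with the background term.

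Top2a, which untangles chromosomes, read 4.61, 4.75, 4.72 and 4.71 in young and 4.75, 4.81, 4.84 and 4.89 in old. The difference of 0.12 ± 0.06 (SE; adjusted p = 0.201) was close to the spread, with young replicate 2 equal to old replicate 1. Ccnb2, cyclin B2, read 4.52, 4.86, 4.74 and 4.88 in young and 4.63, 5.09, 4.77 and 5.15 in old. Old replicates 2 and 4 stood above the other 6 arrays, and the difference was 0.16 (adjusted p = 0.456).

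The other 8 mitotic members were not called either. The mitotic kinase Cdk1 differed by -0.06 and Foxm1, the factor of the second wave, by -0.09. The kinases Aurka, Aurkb, Plk1 and Bub1 differed by 0.07, 0.09, -0.07 and 0.12. Birc5, a partner of Aurkb, differed by 0.16 and the centromeric histone Cenpa by -0.05, with 0.22 from its other probe set. Over the 12 members the 95% intervals reached from -0.28 (Foxm1) to 0.61 (Mki67).

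**Figure D3:**
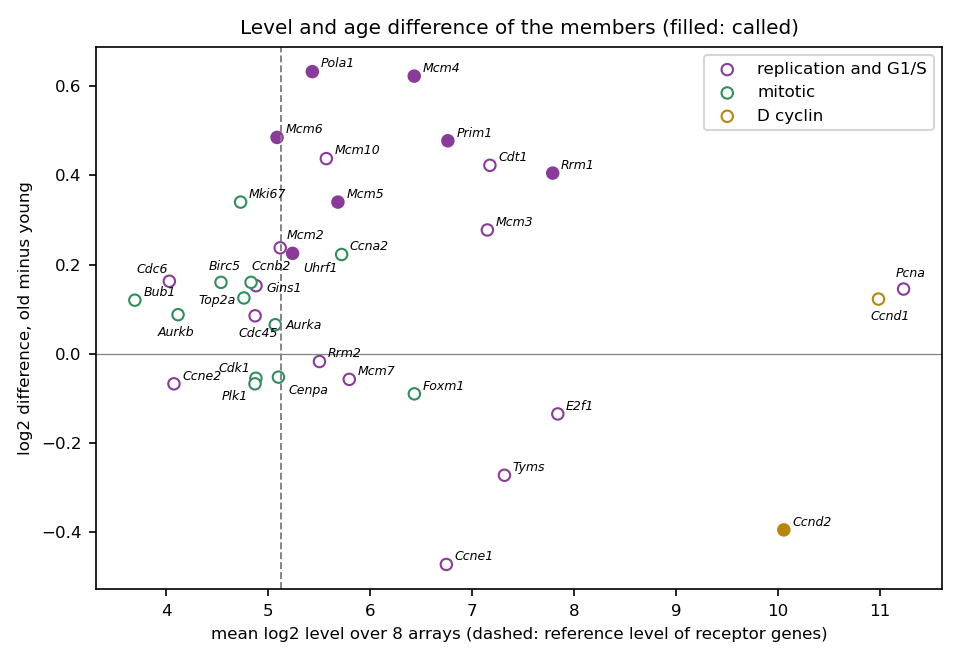
Mean log2 level over 8 arrays (horizontal axis) and log2 difference, old minus young (vertical axis), for each measured member, filled where called. The dashed line is the silent-gene level of 5.12, which 10 of 12 mitotic and 6 of 21 replication members do not exceed.

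The replication and mitotic groups were then set against each other within each array. Each gene was centred on its mean over the 8 arrays, and the members of a group were averaged. The replication score was -0.19, -0.07, -0.10 and -0.03 in young replicates 1 to 4 and 0.06, 0.08, 0.07 and 0.17 in old replicates 1 to 4. All old arrays were above all young arrays. The mitotic score was -0.09, 0.00, -0.06 and -0.02 in young and 0.03, 0.03, -0.04 and 0.14 in old. Old replicate 3 lay inside the young range.

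Replication minus mitotic was -0.10, -0.07, -0.04 and -0.01 in young and 0.03, 0.05, 0.11 and 0.03 in old, so that every old array had the relatively higher replication score. The age differences were 0.19 for replication, 0.08 for mitotic genes and 0.11 for their contrast. They are descriptions of chosen members and have no p. Whether the replication and mitotic genes differ in their change with age was not tested. The groups also differ in level: 10 of 12 mitotic but 6 of 21 replication members lay at or below the silent-gene level. RMA compresses differences near background. With such dim genes left out, 15 replication members, Pola1 among them only through its old arrays, and only 2 mitotic members remained. The contrast was then 0.14. With the background index as a covariate the age differences of replication, mitotic genes and contrast were 0.14, -0.01 and 0.15.

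**Figure D4:**
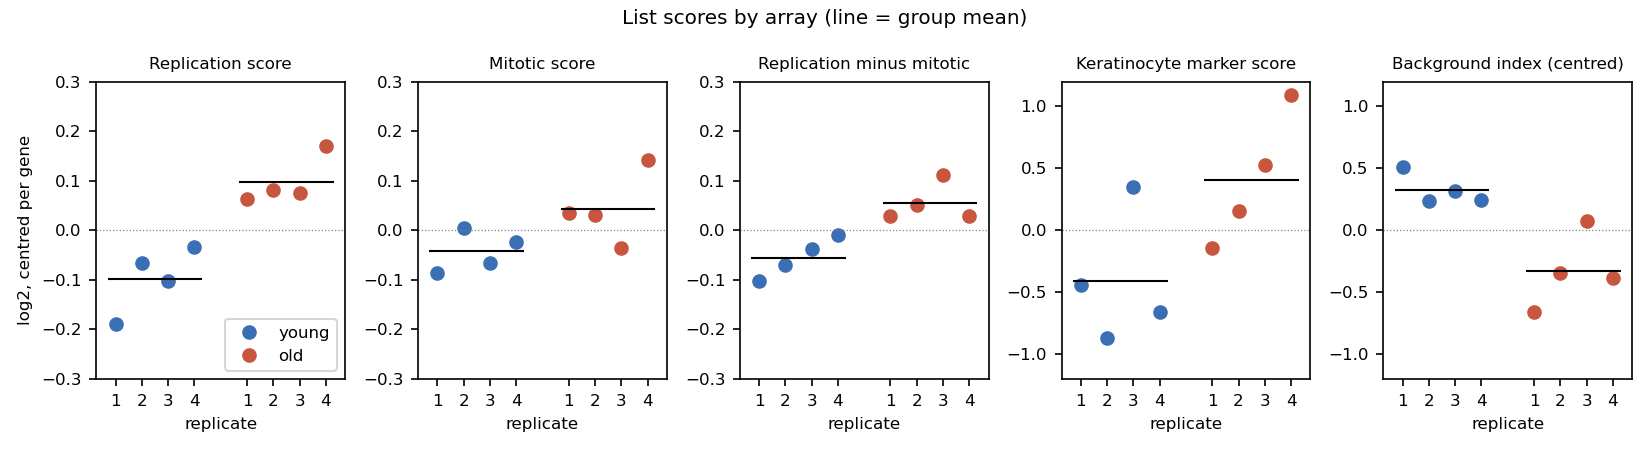
Scores per array (vertical axis, log2, centred) for 4 young and 4 old replicates, with group means as lines, for replication genes, mitotic genes, their difference, keratinocyte markers and the background index. Old arrays exceed all young arrays in the replication score and in the difference, and old replicate 4 has the highest replication, mitotic and keratinocyte scores.

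Markers of other skin cells moved with age as well. Of 10 measured keratinocyte markers Krt5, Krt14 and Perp rose and Trp63 fell. Their summed linear level was 2054 to 5382 in young and 4064 to 9436 in old, and Cdh1 was the 1 marker at or below the silent-gene level. The keratinocyte score was -0.44, -0.87, 0.35 and -0.66 in young replicates 1 to 4 and -0.14, 0.15, 0.53 and 1.09 in old replicates 1 to 4. Without old replicate 4 alone, which had the highest keratinocyte score, 7 replication members were called higher, with Mcm3 in place of Mcm6, beside 7.29% of all genes. The replication score difference was then 0.17, against 0.19 with all arrays, and the mitotic one 0.05, against 0.08. Leaving out 1 array is no test of the part of keratinocytes, which was not tested.

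Of 8 endothelial markers Tek, Flt1 and Tie1 rose (37.5%, against 9.87% of all genes). At or below the silent-gene level were 5 of the 8, Tie1 itself (4.03 in young and 4.38 in old), Cdh5 and Vwf among them (summed level 340 to 459 in young and 481 to 731 in old). Of 6 measured pericyte and smooth muscle markers Kcnj8 rose and 2, Rgs5 and Notch3, were at or below it (696 to 777 and 953 to 1176). Of 10 macrophage markers 7 lay there, including the C1q genes, while Csf1r fell and Lyz2 rose from a young mean below that level (689 to 839 and 516 to 536). The endothelial and pericyte scores, like the replication score, were higher in all 4 old arrays than in any young array, by 0.36 and 0.51 on average. None of the measured T cell, Schwann, adipocyte and erythroid markers (6, 3, 3 and 2) was called. Of 6 melanocyte markers only Mlana was called, as lower, at or below the silent-gene level. Dissociation stress genes had no called member of 11 and a score difference of 0.00. Among them Egr1 (12.90 in young and 12.94 in old) and Dusp1 (12.39 and 12.41) lay near the highest array value of 13.04. Nr4a1 lay lower (11.33 and 11.56). Whether such high levels hid a difference was not tested. The fibroblast marker score was lower in every old array (-0.089 to -0.015) than in any young array (0.008 to 0.145). So was the summed level of these markers (36845 to 38262 in young and 34376 to 35466 in old). The cause was not tested. The part of other cells in the rise of the replication genes was not tested.

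**Figure D5:**
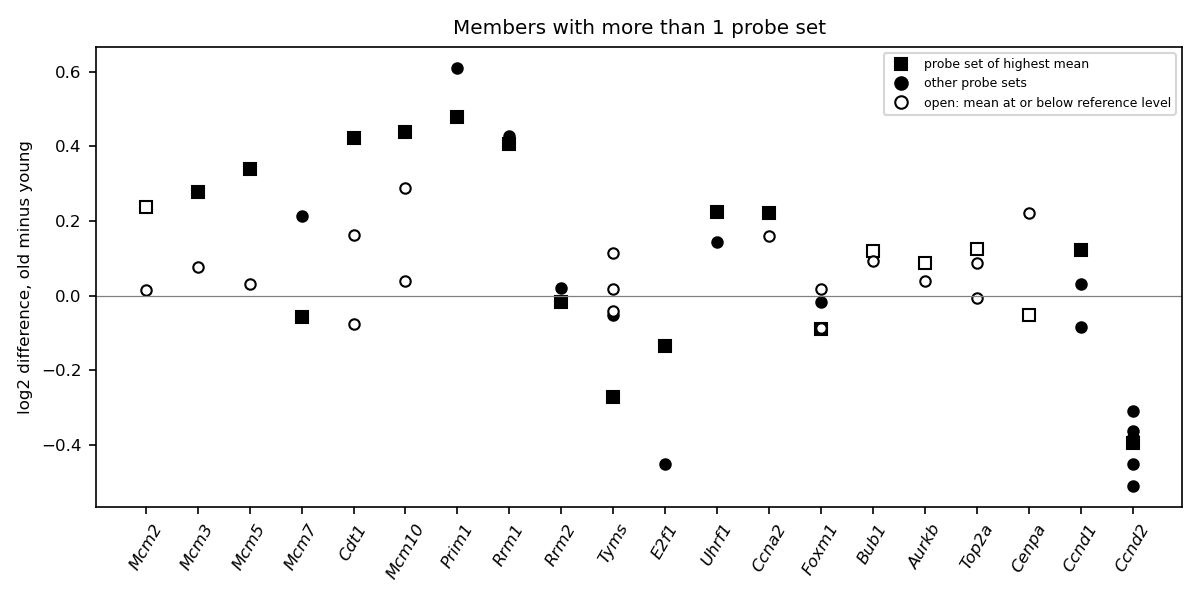
Log2 difference, old minus young (vertical axis), of every probe set for the 20 members with more than 1, squares being the probe set used and open symbols those at or below the silent-gene level. Signs agree for 12 of the 20 members, among them Prim1, Rrm1, E2f1 and all 6 probe sets of Ccnd2.

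Other genes of the same pathways were taken from 3 lists. Of 61 further replication genes 11 rose (18.0%, against 9.87% of all genes) and 2 fell, with a median difference of 0.07 against 0.01. Lig1, which joins Okazaki fragments, read 7.73, 7.49, 7.82 and 7.32 in young and 8.33, 8.29, 8.44 and 8.33 in old, the largest rise of the list at 0.76 ± 0.11 (SE; adjusted p = 0.00108). Dnmt1, the methyltransferase that Uhrf1 recruits, rose by 0.44 (0.00204), the chromatin ATPase Atad2 by 0.435 (0.0133) and Mcm9 by 0.40 (0.0278). Pold2, a subunit of polymerase delta, fell by 0.38 on the log2 scale (0.0237) and Dctpp1, a dCTP pyrophosphatase, fell by 0.27 (0.0465). With the mean over all probe sets Atad2 (0.16, adjusted p = 0.236) and Mcm9 (0.064, 0.556) were not called, nor was Mcm9 after median centring (0.0607) or quantile normalization (0.0694). Calls were also lost for Mcm9 without young replicate 1, 2 or 4 or old replicate 1 or 3 (adjusted p up to 0.077), for Pold2 without young replicate 2, 3 or 4 (up to 0.0657) and for Dctpp1 without any array but young replicate 1 (up to 0.119).

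Of 72 further mitotic genes 5 rose (6.94%, against 9.87% of all genes) and 1 fell, with a median difference of 0.03, and 45 were at or below the silent-gene level. Cks1b, a small partner of cyclin-dependent kinases, rose by 0.51 (adjusted p = 0.0114), and Racgap1, of the cytokinesis machinery, rose by 0.445 (0.0104) from a young mean of 4.82, below the silent-gene level. Smc4, a condensin subunit, rose by 0.36 (0.0112), and its most variable probe set gave 0.66. Pbk rose by 0.305 (0.0126), but from 3.67 to 3.98, a level that silent genes also reach. Espl1, the separase that frees sister chromatids, read 6.18, 6.09, 6.09 and 6.15 in young and 4.65, 5.04, 5.21 and 5.23 in old. It fell by 1.09 on the log2 scale (adjusted p = 2.7e-04) to a mean of 5.03, a level that silent genes also reach, and old replicate 1, the array of lowest background index, was the lowest.

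Of 24 further regulators of G1 and E2F 6 rose (25.0%, against 9.87% of all genes) and 1 fell. Lin54, the DNA-binding subunit of the MuvB complex, rose by 0.61 (adjusted p = 0.0278), and Cdk6, a D cyclin partner, by 0.58 (0.0468). Tfdp2, a dimer partner of E2F factors, rose by 0.53 (0.0129), and Rb1, the retinoblastoma protein that restrains E2F, by 0.48 (0.0215). Cdk7, the kinase that activates other cyclin-dependent kinases, fell by 0.42 (0.0122). Calls were lost for Lin54 without any array but young replicate 4 and old replicate 1 (up to 0.0706), for Cdk6 without any but old replicates 2 and 3 (up to 0.121) and for Rb1 without young replicate 2, 3 or 4 (up to 0.0619). Cdk6 was not called after median centring (0.0582) or quantile normalization (0.0699) or with the mean over its probe sets (0.375, adjusted p = 0.0793), and Rb1 was not after quantile normalization (0.0549). The probe set mean gave 0.29 for Rb1, 0.33 for Tfdp2 and -0.69 for Cdk7, which stayed called, and the most variable probe set gave -0.94 for Cdk7.

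With the background term limma called none of the genes named from these 3 lists (adjusted p between 0.0636 and 0.982). The differences were then 0.96 for Lig1, 0.89 for Lin54, 0.54 for Cks1b, 0.50 for Tfdp2, 0.37 for Rb1, -0.64 for Cdk7 and -0.39 for Dctpp1. They were 0.28 for Atad2, 0.27 for Dnmt1, 0.25 for both Mcm9 and Racgap1, 0.18 for Pbk, 0.13 for Smc4, -0.23 for Pold2 and -0.69 for Espl1. Cdk6 turned sign (-0.03).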

How the data were processed

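Fibroblast RNA was hybridised to Affymetrix mouse arrays, 4 from young and 4 from old animals. The deposited log2 values were made with RMA and the R package affy, per the submitters' processing notes, in versions not given in the sources used here. RMA corrects background, gives arrays nearly 1 distribution, which hides shifts shared by most genes, and compresses differences near background. Of 45141 probe sets, 28898 had 1 gene symbol, 551 several and 15692 none; symbols were updated through RefSeq gene IDs (28689 matched). Where several probe sets named a gene, that with the highest 8-array mean was used.

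Old and young were contrasted by limma (version 3.58.1, R 4.3.3) with lmFit, eBayes and no covariate. The 2-sided p-values were adjusted by Benjamini-Hochberg over 17097 genes, with calls under 0.05. The test was checked on simulated data. Members and lists were chosen with earlier results of these data known. All members are named, as are up to 4 called genes per direction of each other pathway list, by largest difference. Pola2 and Prim2 are given besides, as partners of members. The self-made reference for silent genes is the 95th percentile of receptor genes. The number of arrays limits precision, and no depth applies. Alternatives covered the block, scaling, a background covariate, probe set choice, dim genes, variance settings and each array left out. Figures were drawn with matplotlib 3.10.9.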

Additional observations from a re-analysis of the deposited data

Results flagged for a closer look

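In 5 of 76 sets of 4 arrays, 1 array stood apart from the other 3 by more than the 95% critical value of Dixon's test, a rate near the 1 in 20 that chance gives. Mcm3 read 7.06 in old replicate 4, against 7.34 to 7.38 in the other old arrays. Ccne2 read 3.93 in old replicate 1, against 4.07 to 4.09, at background level. Ccna2 read 5.83 in young replicate 2, against 5.51 to 5.56. Aurka read 5.18 in old replicate 2, against 5.07 to 5.08. The replication score was 0.17 in old replicate 4, against 0.06 to 0.08 in the other old arrays.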

How the results depend on the processing

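Under a further quantile normalization, median centring, other probe set choices, dim genes left out, variance settings and the replicate block, 5 or 6 replication members were called higher, against 7. Of all genes tested 16.1% were called higher with dim genes left out and 8.28% to 10.8% under the others, against 9.87%. With the background index as a covariate 0 replication members were called higher (5 at an unadjusted p under 0.05 by limma), beside 70 genes higher and 104 lower in all. The mitotic score difference became -0.012 and the contrast 0.15. Called lower was 1 replication member each under the replicate block (Ccne1), quantile normalization (Tyms), the mean over all probe sets and the most variable one (both E2f1). Leaving out single arrays gave 4 to 7 replication members higher (4 without young replicate 3), 0 to 1 lower, 0 to 1 mitotic members higher (Mki67), 1215 to 1709 genes higher and 983 to 1219 lower, and score differences of 0.16 to 0.22, 0.05 to 0.11 and 0.09 to 0.13. Members that were not called changed sign with the covariate (Cdc45 -0.078, Bub1 -0.23, Aurkb -0.22, Plk1 0.078, Mki67 -0.10, Cenpa 0.021), as did Cdk6 (-0.034), which had been called. They did so with the mean over probe sets (Mcm7 0.077, Rrm2 0.0012, Cenpa 0.085) and the most variable one (Mcm7 0.21, Rrm2 0.02, Cenpa 0.22, Ccnd1 -0.085), and without single arrays (Rrm2 -0.051 to 0.023, Mcm7 -0.11 to 0.011). The cause was not tested.

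Same-numbered young and old arrays deviated together with r of 0.29, 0.05, -0.04 and 0.22, and arrays of unlike number with r of -0.26 to 0.21. The values for replicates 1 and 4 were thus above all of unlike number, and pairing is not settled by them. The numbers are not taken as pairs because the labels do not tie them to collection days. With the replicate block 6 replication members were higher: Mcm5 (adjusted p = 0.0713) and Uhrf1 (0.0651) lost their calls, and Cdt1 gained one (0.0142).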

Other observations

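Within the old arrays the members did not share 1 order, a pattern picked out after the values were seen. Mcm4, Mcm6 and Prim1 were highest in old replicate 1 (6.92, 5.49 and 7.17) and lowest in old replicate 2 (6.48, 5.11 and 6.80). Mcm10, Cdt1, Ccnb2 and Birc5 were higher in old replicates 2 and 4 than in old replicates 1 and 3. Birc5 read 4.81 and 4.91 there against 4.24 and 4.50, and 4.41 to 4.49 in young.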
